A study of Mus musculus with 3 samples.

Results

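The m6A RNA methylation machinery is the set of proteins that place, read and remove N6-methyladenosine on RNA. The 10 genes described here are the writers Mettl3, Mettl14 and Wtap, the readers Ythdf1, Ythdf2, Ythdf3, Ythdc1 and Ythdc2, and the demethylases Fto and Alkbh5, chosen by name and not by their values. All 10 were found among the 18121 protein-coding genes with a coding row in the deposited table. RNA came from cortical neurons of Swiss-Webster mice, an outbred stock, dissociated at E16 (embryonic day 16) and grown on poly-D-lysine in neurobasal medium with B27, L-glutamine and penicillin/streptomycin, in a series on the topoisomerase TOP2B. The neurons were WT (wild type) with the treatment given as None; the shared growth protocol also describes etoposide in DMSO, which the labels assign to none of these libraries. The 3 poly-A libraries form 1 group, so no condition can be compared with another. How many embryos were combined, and whether each library is its own culture, is not given in the labels, and the SD may hold technical spread alone.

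N6-methyladenosine is the most common internal mark of messenger RNA. METTL3 transfers the methyl group as a heterodimer with METTL14, and WTAP holds this pair in a larger nuclear complex. Proteins with a YTH domain bind the marked base: YTHDF proteins act in the cytoplasm on decay and translation, YTHDC1 acts in the nucleus on splicing and export, and YTHDC2 is an RNA helicase best known from meiosis. FTO and ALKBH5 remove the methyl group, and FTO also acts on a related mark beside the cap. In the developing cortex the pathway is known for its part in the timing of neurogenesis, and in mature neurons for local translation and memory.

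Values are TPM, a share of reads scaled by transcript length, given as mean ± SD (n = 3). A gene's value is that of its longest protein-coding transcript row, and the row with the highest mean is given as a check. Rows of a gene share reads, and the deposited sum is spread over all of them, so TPM here is lower than a gene-level TPM: rescaling to 1 row per nuclear protein-coding gene multiplied it by 4.74, 4.69 and 4.87 in libraries 1, 2 and 3. Reads per row were recovered from the values. For a row of 2 kb, a level of 1 TPM corresponds to 103 reads in library 1, 86.5 in library 2 and 91.4 in library 3.

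The label of the cells was checked against 6 markers for each of 6 cell classes. All 6 pan-neuronal genes stood between 22.6 and 687 TPM, and their summed level was 1898, 1932 and 1715 TPM in libraries 1, 2 and 3. The 6 astrocyte genes stood between 6.65 and 184 TPM, with sums of 383, 403 and 462 TPM, so the cultures also held RNA of astrocyte genes. Of the oligodendrocyte lineage and of the proliferating progenitor genes 5 of 6 each reached 1 TPM, with sums of 48.8 to 80.3 and 30.2 to 36.9 TPM. Of the microglial and of the endothelial and mural genes 1 of 6 each reached 1 TPM, and Tmem119 and Cldn5 were listed at 0. In such bulk RNA fewer cells of a type and less RNA per cell cannot be told apart, and which cells the RNA of the 10 genes came from was not tested.

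The highest row exceeded the longest coding row more than 1.5 times in 4 genes: 3.996 times in Fto, 1.65 in Mettl14, 1.62 in Wtap and 1.59 in Ythdf2. The share of all protein-coding genes above 1.5 times was not computed, so this count is a description only. In Mettl14 the longest coding row holds 651 coding bases, against 1368 in the row with the longest coding sequence, which stood at 7.35 ± 0.574 TPM. Fto and Wtap changed most in rank with the row, and the sequences at which their rows part are shown first for that reason. In both the longest coding row does not hold the full coding sequence: it runs through the end of an inner exon into the intron and ends there. The lines below give the last 18 bases that the full-length and the early-ending transcript share, in lower case, and the 12 bases that follow in each, in capitals (GENCODE M21, mm10, read along the transcript).
Fto-201, exon 8 to exon 9, chromosome 8 plus strand, shared up to base 91522896 and resumed at 91666282: gaaggagtggcatgccagGTGCCAGTCCCG
Fto-203, exon 8 running on into the intron, resumed at 91522897: gaaggagtggcatgccagGTTTGTTCTGCT
Wtap-201, exon 6 to exon 7, chromosome 17 minus strand, shared down to base 12975296 and resumed at 12969559: gaagtttacgcctgatagCCAAACAGGCAA
Wtap-204, exon 6 running on into the intron, resumed at 12975295: gaagtttacgcctgatagGTAAACAAATCA
In the full-length transcripts the capitals are the start of the next exon, and in the early-ending ones they are the start of the intron. After this point Fto-203 holds 88 further coding bases and Wtap-204 holds 1, against 151 in Fto-201 and 736 in Wtap-201, stop codons not counted.

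All 10 genes were detected, taken as a mean of at least 1 TPM, in a table in which 61.5% of protein-coding genes were. Of the 10, 3 stood at 10 TPM or more (Ythdf1, Ythdc1 and Ythdf3), where 26.4% of protein-coding genes did. On the highest rows all 10 were again detected, against 63% of protein-coding genes, and 7 stood at 10 TPM or more, against 31%. Levels of the 10 genes ran from 5.62 to 31.6 TPM on the highest rows. They ran from 5.23 to 19.7 TPM on the longest coding rows, a band that held 4602 of the 18121 protein-coding genes. On these longest rows the median of log2(mean TPM + 1) was 3.16 ± 0.03 (SD of the 3 library medians). It was 1.94 over all protein-coding genes and 3.19 over the 11150 detected ones. On the highest rows the median of the 10 genes was 3.83 ± 0.04, against 3.43 over the detected genes. The median thus lay near or above that of detected genes depending on the row. On the longest coding rows the levels ran from Wtap, above 60.4% of protein-coding genes, to Ythdf1, above 85.8%.

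**Figure D1:**
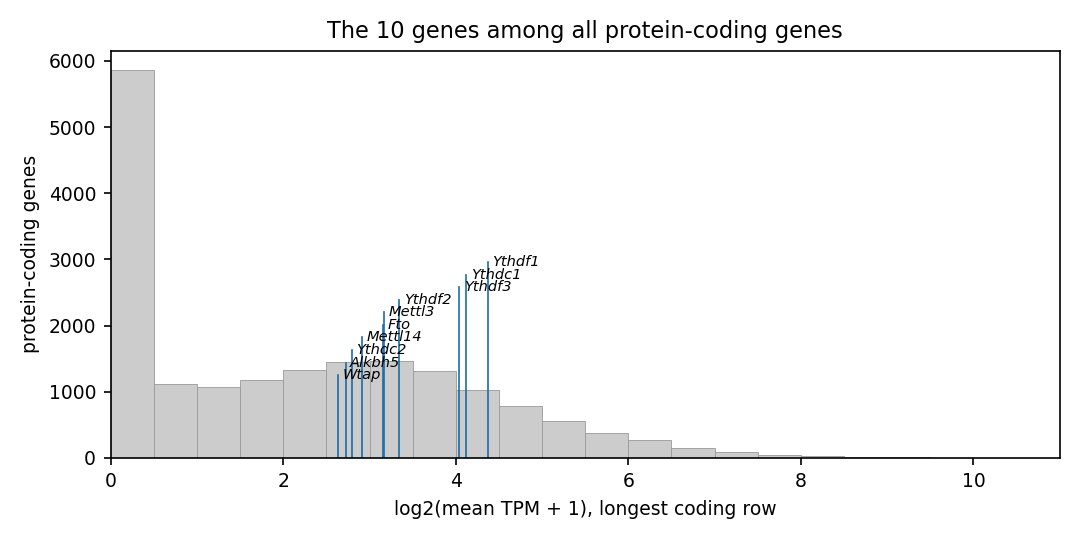
Histogram of log2(mean TPM + 1) on the longest coding row for 18121 protein-coding genes (grey bars, 0.5 wide), with a line for each of the 10 genes; the height of a line has no meaning. The 10 genes lie between 2.64 (Wtap) and 4.37 (Ythdf1), inside the main hump of the detected genes.

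On the longest coding rows the writer genes held ranks 5 (Mettl3), 7 (Mettl14) and 10 (Wtap) among the 10 genes. Mettl3, the catalytic subunit (chromosome 14, 52294841 to 52305128, minus strand), stood at 8.42, 8.01 and 7.61 TPM in libraries 1, 2 and 3, a mean of 8.01 ± 0.405 TPM. Its row rests on 874, 701 and 704 reads. Mettl14, the partner that shapes the RNA-binding surface (chromosome 3, 123364645 to 123385990, minus strand), stood at 5.69, 6.98 and 6.96 TPM (mean 6.54 ± 0.740 TPM). Library 1 was thus the highest for Mettl3 and the lowest for Mettl14, and the ratio of Mettl3 to Mettl14 TPM was 1.48 there, against 1.15 and 1.09 in libraries 2 and 3. The log2(TPM + 1) of Mettl3 exceeded that of Mettl14 by 0.26 ± 0.20 and did so in all 3 libraries (two-sided exact permutation of signs, p = 0.25; 0.25 after Benjamini-Hochberg adjustment over 6 pairs). That is the smallest value 3 libraries can give, so no pair of genes below could have passed a threshold of 0.05. On the rows with the longest coding sequence the difference was 0.11 ± 0.16, with Mettl3 the higher in only 2 libraries (exact permutation p = 0.5), so the order of the heterodimer's genes is not settled. Wtap, the adaptor (chromosome 17, 12966796 to 12992546, minus strand), had the lowest mean of the 10 genes, with 5.19, 5.04 and 5.47 TPM (mean 5.23 ± 0.218 TPM). Its early-ending row Wtap-204 gave these values, and the full-length rows Wtap-201 and Wtap-203 stood at 8.49 ± 0.523 and 8.45 ± 0.514 TPM, where the ranges of Wtap and Mettl3 overlapped.

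Among the cytoplasmic readers Ythdf1 was the highest and Ythdf2 the lowest in each library. Ythdf1, studied for its part in translation (chromosome 2, 180904377 to 180920949, minus strand), stood at 19.2, 21.5 and 18.3 TPM (mean 19.7 ± 1.62 TPM), the highest longest-row level of the 10 genes. Ythdf3, which works with both paralogs (chromosome 3, 16183212 to 16217037, plus strand), stood at 14.8, 17.5 and 14.2 TPM (mean 15.5 ± 1.75 TPM). Library 2 was the highest for both. Ythdf2, which brings marked RNA to the CCR4-NOT deadenylase (chromosome 4, 132184912 to 132212303, minus strand), stood at 9.48, 9.41 and 8.63 TPM (mean 9.17 ± 0.470 TPM). The ranges of the 3 paralogs did not overlap. Ythdf1 exceeded Ythdf2 by 1.02 ± 0.08 and Ythdf3 by 0.33 ± 0.04 on the log2(TPM + 1) scale, and Ythdf2 lay below Ythdf3, with a difference of -0.69 ± 0.12. Each direction held in all 3 libraries (exact permutation p = 0.25 for each pair). The size of the Ythdf2 gap depended on the row: on the highest rows Ythdf2 stood at 14.6 ± 0.703 TPM and its differences shrank to 0.49 from Ythdf1 and -0.17 from Ythdf3, in the same direction. For Ythdf2, 91.4% of the 50-base words of its longest row occur at no other annotated locus, and the rest are shared with the annotated genes Gm6823 and Gm8401. The effect of shared sequence on its level was not tested. For Ythdf1 and Ythdf3 all such words were unique.

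The nuclear reader was well above its helicase relative. Ythdc1 (chromosome 5, 86804221 to 86836659, plus strand) stood at 14.7, 17.4 and 17.1 TPM (mean 16.4 ± 1.45 TPM) from 2471, 2454 and 2560 reads. Ythdc2 (chromosome 18, 44828665 to 44889720, plus strand) stood at 5.54, 6.64 and 5.71 TPM (mean 5.96 ± 0.593 TPM). The ranges did not overlap: in log2(TPM + 1) Ythdc1 was the higher by 1.32 ± 0.10, in each of the 3 libraries (exact permutation p = 0.25), a TPM ratio of 2.76 ± 0.212. Ythdc2 has a single row in the table, whereas Ythdc1 has 8. Meioc, the meiotic partner of YTHDC2, stood at 0.00427, 0.00506 and 0 TPM. In the annotation used, 19.3% of the longest Ythdc1 row overlaps exons of the lincRNA Gm43055 on the same strand, which has no row in the table, so reads of the lincRNA and of Ythdc1 cannot be told apart there.

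Of the demethylases, Fto changed its place with the row and Alkbh5 hardly did. Fto stood at 7.83, 8.01 and 7.87 TPM (mean 7.90 ± 0.0958 TPM) on its longest coding row. Alkbh5 (chromosome 11, 60536381 to 60558512, plus strand) stood at 5.81, 5.87 and 5.17 TPM (mean 5.62 ± 0.388 TPM). Alkbh5 was below Fto in each library, with a difference of -0.43 ± 0.08 on the log2(TPM + 1) scale (exact permutation p = 0.25). On the full-length row Fto-201 the level was 26.5, 27.4 and 27.2 TPM (mean 27.0 ± 0.484 TPM), and the difference of Alkbh5 from it was -2.08 ± 0.09. On that choice Fto was the highest of the 10 genes in place of the sixth and Wtap the sixth in place of the lowest, while Alkbh5 kept its row and was the lowest. Fto then stood above Ythdf1, whose row with the longest coding sequence stood at 19.4 ± 1.32 TPM. The statement that Alkbh5 lay below Fto held on every row choice tried, and the statement that the readers lead the machinery held only on the longest row.

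**Figure D2:**
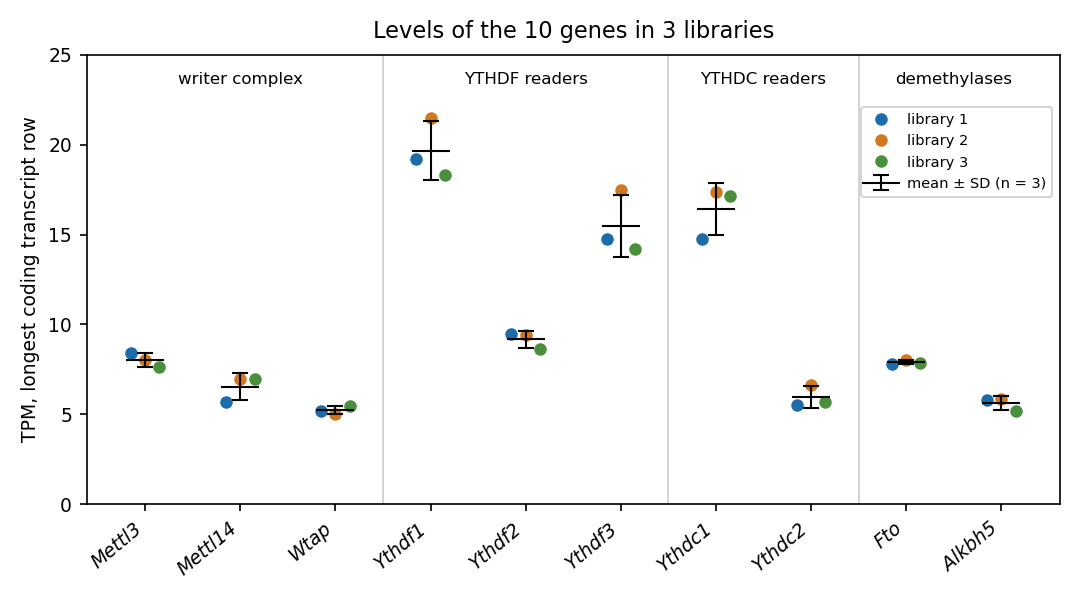
TPM of each gene on its longest coding transcript row in libraries 1, 2 and 3 (coloured points), with the mean and SD (black, n = 3), grouped by role. Ythdf1, Ythdf3 and Ythdc1 sit at 14.2 TPM or more in each library and the other genes at 9.48 TPM or less; Fto is shown on Fto-203, whose level is 7.90 TPM.

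Neighbours in the order of levels often had overlapping library ranges. From the highest, the order on the longest coding row was Ythdf1, Ythdc1, Ythdf3, Ythdf2, Mettl3, Fto, Mettl14, Ythdc2, Alkbh5 and Wtap. The library ranges of Ythdc1 and Ythdf3 overlapped (difference 0.08 ± 0.15 on the log2(TPM + 1) scale), as did those of Mettl3 and Fto (0.02 ± 0.07). Neighbours among the 4 lowest genes overlapped too: Mettl14 and Ythdc2 differed by 0.11 ± 0.12, Ythdc2 and Alkbh5 by 0.07 ± 0.11 and Alkbh5 and Wtap by 0.09 ± 0.14. Within libraries, Mettl14 was above Ythdc2 in all 3, Ythdc2 above Alkbh5 in 2 and Alkbh5 above Wtap in 2. The ranges of Mettl14 (lowest 5.69 TPM) and Wtap (highest 5.47 TPM) did not overlap. The gap between Ythdf3 and Ythdf2, 0.69 ± 0.12, was the widest step in the order and its ranges did not overlap. The remaining neighbours, Ythdf1 over Ythdc1, Ythdf2 over Mettl3 and Fto over Mettl14, had separate ranges with differences of 0.25 ± 0.14, 0.17 ± 0.03 and 0.24 ± 0.14.

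The spread between libraries was like that of other genes. The median coefficient of variation of the 10 genes was 7.57%, against 7.32% over the 4602 protein-coding genes between the lowest and the highest member. It ran from 1.21% for Fto to 11.3% for Mettl14 and for Ythdf3. In the 8 genes whose longest row has the same ends in both annotation releases, all but Mettl14 and Ythdc2, the library differences were set against counting noise as a chi-square per degree of freedom, which is near 1 for counting noise alone. Fto gave 0.251, Wtap 1.30, Mettl3 2.004, Ythdf2 4.62 and Alkbh5 7.04, whereas Ythdf1, Ythdc1 and Ythdf3 gave 18.8, 20.5 and 44.9. Over 7983 detected genes pairs of libraries gave 15.5 to 22.7, which is not directly comparable with the 3-library value of a single gene. At a given coefficient of variation the measure also grows with the number of reads, so rows with more reads give higher values. The reader rows with the most reads varied beyond counting error: the 95% exact Poisson interval of Ythdf3, which covers counting error only, was 16.9 to 18.03 TPM in library 2 and 13.7 to 14.7 TPM in library 3. Of the 10 genes, Ythdf1, Ythdf3 and Alkbh5 had their libraries in the same order as the summed neuronal genes, highest in library 2 and lowest in library 3. The rest of the 10 did not, and the share of all protein-coding genes in this order was not computed. The match of these 3 genes is thus a description only. The astrocyte sum was highest in library 3. Of the single neuronal genes only Map2 and Snap25 ran in the order of the neuronal sum. Tubb3 and Stmn2 were highest in library 1, and Rbfox3 and Syp were not lowest in library 3. The part of cell makeup in these differences was not tested.

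The 10 genes hold 54 rows in the table, 35 of them protein-coding, between 0.381 and 31.6 TPM. Of these, 7 stood more than 1.5 times above the gene's longest coding row and 8 more than 1.5 times below it. The same shares over the rows of all genes were not computed. Ythdf1 showed the least difference, with 3 rows between 19.4 and 20.9 TPM. For Mettl3 the 14 rows ran from 4.10 ± 0.761 TPM, for a nonsense-mediated decay model of 330 bases, to 11.996 ± 0.415 TPM, for a coding fragment of 438 bases at the 3′ side of the gene. Mettl3 overlaps Tox4, a gene on the other strand whose exons cover 18.1% of the longest Mettl3 row and whose highest row stood at 14.0 TPM; the libraries were strand-specific, but the strand setting of the counting is not given in the sources used here, so the part of Tox4 reads in the Mettl3 rows was not tested. In Mettl14 the shortest coding row stood at 10.8 ± 0.728 TPM and in Ythdf2 at 14.6 ± 0.703 TPM, each lying wholly within the longest row.

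**Figure D3:**
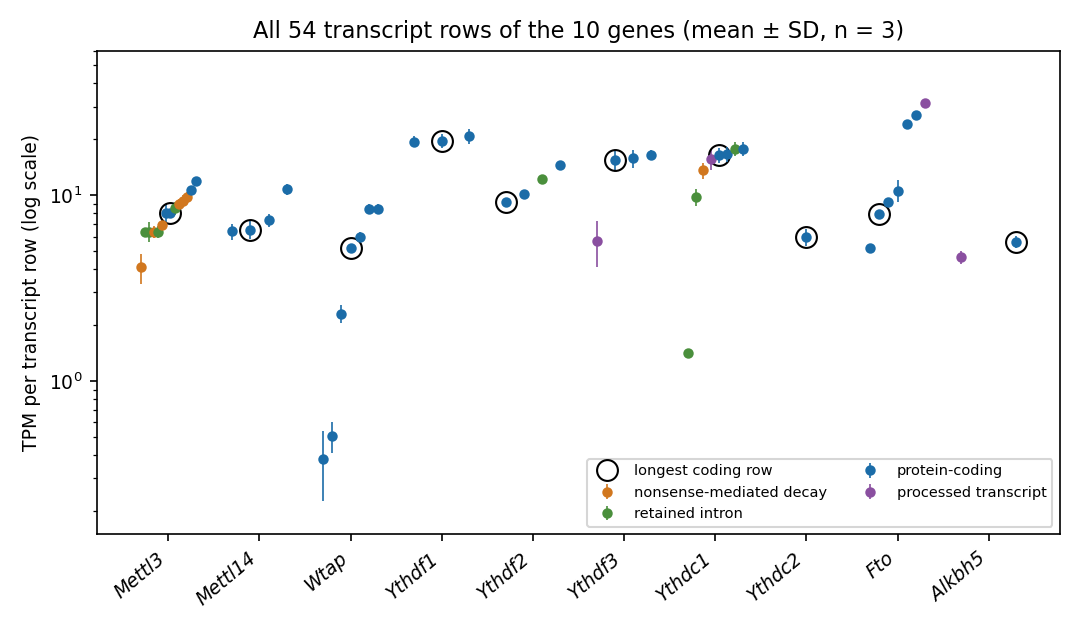
Mean TPM ± SD (n = 3) of all 54 transcript rows of the 10 genes on a log scale, coloured by transcript type, with the longest coding row circled. Ythdf1 rows lie between 19.4 and 20.9 TPM, while Wtap rows run from 0.381 to 8.49 TPM and Fto rows from 5.20 to 31.6 TPM.

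Some noncoding rows of Ythdc1 and Ythdf3 lay well below their coding rows. A retained-intron row of Ythdc1 with 4006 bases, of which 6.29% lie in the longest row, stood at 1.41 ± 0.0814 TPM. Another, with 6313 bases and 44.8% of them in the longest row, stood at 9.83 ± 1.02 TPM. The 3 coding rows of Ythdc1 lay between 16.4 and 17.9 TPM, and the remaining noncoding rows came close to them: a short retained-intron row of 1246 bases, 97.3% of them in the longest row, stood at 17.8 ± 1.58 TPM and a processed transcript of 593 bases at 15.7 ± 1.94 TPM. In Ythdf3 a processed transcript of 723 bases stood at 4.53, 5.05 and 7.45 TPM from 168, 158 and 246 reads. Library 3 was its highest, whereas library 2 was the highest for each of the 3 coding rows of Ythdf3.

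Fto spans 355 kb on chromosome 8 (91313532 to 91668439, plus strand), longer than 97.8% of protein-coding genes, while the median span is 21.2 kb. It is the only one of the 10 genes above 100 kb; the next, Ythdc2, spans 61.1 kb, and Mettl3 is the shortest at 10.3 kb. The last exon of Fto-201 lies 353 kb from the start, and Fto-203 ends 213 kb from it. Fto-205, a processed transcript that covers inner and last exons of the gene, stood at 31.6 ± 1.36 TPM, and Fto-207, a coding fragment of inner exons at the 5′ side, at 24.1 ± 0.923 TPM. The level of Fto-201 lay between these. The early-ending rows were lower: Fto-204 stood at 9.16 ± 0.130 TPM, Fto-203 at 7.90 TPM and Fto-202 at 5.20 ± 0.286 TPM.

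The level of Fto-203 could be set against what its shared exons alone would give. It shares 1373 of its 4707 bases (29.2%) with Fto-201 in the annotation used. If those bases carried reads at the TPM of Fto-201 and the other 3334 bases carried none, Fto-203 would stand at 7.88 TPM, and it stood at 7.90 TPM; the measured value was 1.003 ± 0.00967 times the computed one. The match depends on the row taken as the level of the shared exons: at the level of Fto-207 they would give 7.02 ± 0.269 TPM and at that of Fto-205 9.21 ± 0.398 TPM. Whether its intron-derived end carried reads is therefore not settled by these values. In the annotation used, exons of the antisense gene 4831440D22Rik, which has no deposited row, overlap 144 bases (3.06%) of Fto-203 on the other strand. The part of its reads in Fto-203 was not tested. The calculation assumes even coverage along the transcript, which poly-A libraries need not have, and uses the M21 model of Fto-201, 3564 bases long where the deposited values fit a length of 3557.

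Wtap-204 shares 576 of its 3187 bases (18.1%) with Wtap-201, and those alone would give it 1.53 TPM, but it stood at 5.23 TPM, 3.41 ± 0.0882 times as much. It rests on 848, 694 and 796 reads, close in number to the 862, 725 and 852 reads of Wtap-201. Other short rows were low. Wtap-202, which lies wholly within Wtap-204, held 52, 49 and 58 reads over 495 bases (2.30 ± 0.258 TPM). Wtap-206 and Wtap-207 stood at 0.381 ± 0.156 and 0.506 ± 0.0948 TPM. Most reads of Wtap-204 thus lay outside the exons of Wtap-202. The longest row shares words with the annotated genes Gm14292, Gm7381 and Gm9068: only 47.1% of the 50-base words of Wtap-204 before the point of divergence are unique, against 100% after it. How reads that fit several places were treated is not given in the sources used here, and the part of these copies in the low short rows was not tested. For Fto all words were unique on both sides of the divergence.

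**Figure D4:**
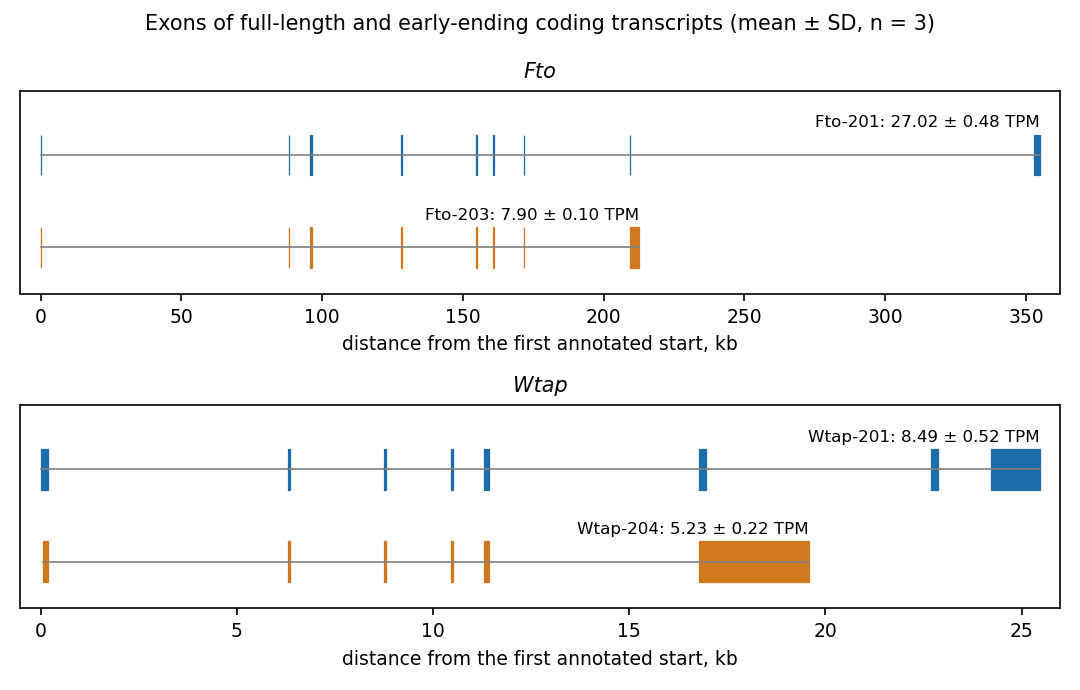
Exons (boxes) of the full-length (blue) and early-ending (orange) coding transcripts of Fto and Wtap by distance from the first annotated start in kb, with mean TPM ± SD (n = 3) of each row. Fto-203 stands at 7.90 against 27.02 TPM for Fto-201, and Wtap-204 at 5.23 against 8.49 TPM for Wtap-201.

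The other subunits of the writer complex ran from below the 3 writers to above them. All 5 partners reached 1 TPM and 1 reached 10 TPM, with a median of 6.67 TPM. Zc3h13, which keeps the complex in the nucleus, stood at 11.3 ± 0.682 TPM, the ubiquitin ligase gene Cbll1 (Hakai) at 7.88 ± 0.771 TPM and the scaffold gene Virma at 6.67 ± 0.246 TPM. Rbm15b and Rbm15, paralogs that guide the complex to RNA, stood at 6.60 ± 0.0752 and 1.38 ± 0.0930 TPM, and on its highest row Rbm15b reached 19.4 ± 1.85 TPM. Of 6 other genes tied to m6A methyltransferases 4 reached 1 TPM, led by the ribosomal RNA enzyme gene Mettl5 at 6.22 ± 0.255 TPM and with Zcchc4, which also acts on ribosomal RNA, the lowest at 0.679 ± 0.0421 TPM. Zcchc4 reached 2.41 TPM on its highest row, so it passed 1 TPM there and was no longer the lowest. Mettl16 led on the highest rows at 8.09 TPM, against 6.86 TPM for Mettl5.

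Other readers covered a wide range of levels. Of 8 listed, 5 stood above 10 TPM: Hnrnpa2b1 at 105 ± 3.05, Hnrnpc at 57.4 ± 0.459, Prrc2a at 29.7 ± 1.62, Fmr1 at 19.5 ± 1.98 and Rbmx at 11.3 ± 0.581 TPM. The first 2 encode nuclear ribonucleoproteins, and Fmr1 encodes FMRP, a repressor of translation in neurons. The IGF2BP genes, whose products stabilise marked RNA and are known from fetal tissue, stayed below 1 TPM: Igf2bp3 stood at 0.783 ± 0.0614, Igf2bp2 at 0.398 ± 0.103 and Igf2bp1 at 0.00829 ± 0.00482 TPM. These 3 are also below 1 TPM on their highest rows.

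The CCR4-NOT deadenylase, to which YTHDF2 brings RNA, had all 10 listed subunits above 1 TPM and 7 above 10 TPM, with a median of 11.7 TPM. The catalytic subunit gene Cnot7 was the highest at 37.6 ± 2.79 TPM and Cnot6l the lowest at 6.07 ± 0.722 TPM. Among the partners of the YTHDC readers 5 of 6 were detected, led by Srsf3, a splicing factor that YTHDC1 recruits, at 23.5 ± 1.68 TPM. All 7 other ALKBH genes were detected, and on the longest coding row all lay below 10 TPM. They ran from Alkbh2, a DNA repair enzyme gene, at 1.47 ± 0.386 TPM to Alkbh6 at 9.24 ± 0.489 TPM, so that Alkbh5 lay within their range. Alkbh6 reached 11.3 TPM on its highest row. Among the genes listed for the cycle that supplies the methyl donor, Ahcyl1 had the highest mean at 71.6 ± 4.44 TPM. Ahcyl1 is an Ahcy-like gene listed by name, and no enzyme role in the cycle is claimed for it. Its range overlapped that of Mat2a, the gene of an enzyme that makes the donor, at 70.5 ± 0.306 TPM. Ahcy, the enzyme gene that clears the used donor, was listed at 0.0230, 0.0182 and 0.0344 TPM. Only 23.0% of the 50-base words of its longest row were unique, so its level is uncertain.

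**Figure D5:**
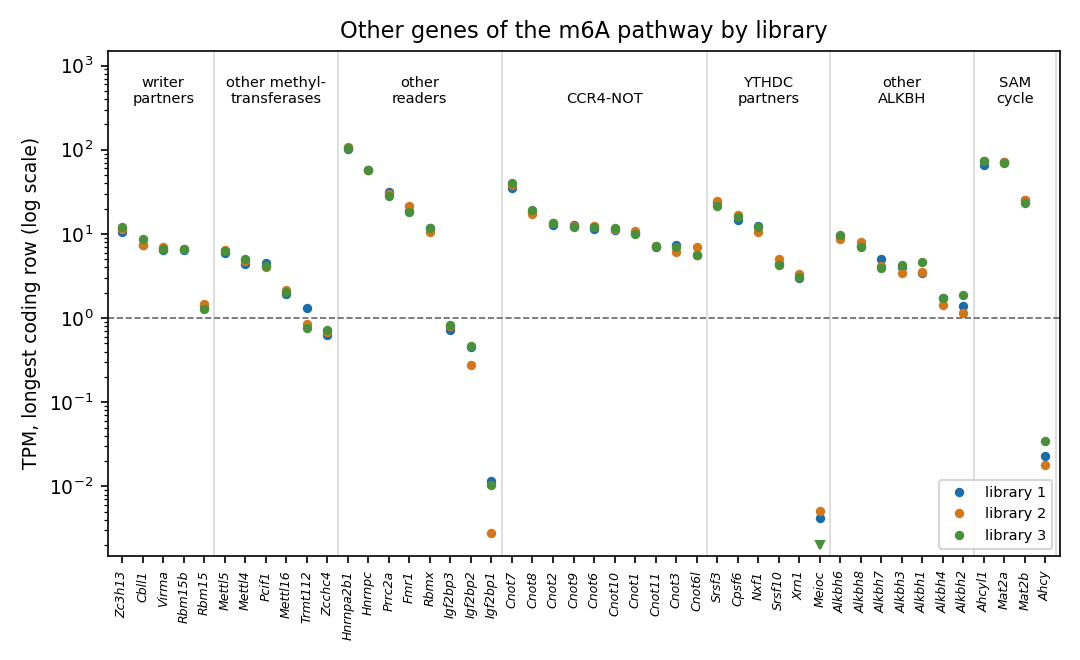
TPM on the longest coding row of the other listed genes of the pathway in libraries 1, 2 and 3 (points, log scale), ordered within each list, with a dashed line at 1 TPM and a triangle for a value of 0. Hnrnpa2b1 lies near 105 TPM, while Igf2bp1, Meioc and Ahcy lie at 0.0344 TPM or lower in each library.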

How the data were processed

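Poly-A RNA of 3 untreated libraries was measured. The authors deposited TPM per transcript row; per the submitters' processing notes, Trimmomatic, TopHat, Bowtie, HTSeq and the build mm10 were used, in roles and versions that the notes leave out, and the table is named for GENCODE release M4. The sources used here do not state strand setting, treatment of multi-mapped reads or filters. Of 84660 rows, 82970 matched GENCODE M21 (same build) by transcript identifier, chromosome, strand and overlap, 47 lay elsewhere and 1643 did not match. Symbols, types, lengths and sequences are those of M21; coordinates of rows are the deposited ones, from base 1.

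TPM times length was a whole multiple (within 0.01 in each library) of 1 number per library in 99.8% of 69510 rows above 0 with the same ends in both releases, which gave reads. For changed models, the length that made reads whole (within 0.003) was searched; among 300 known rows the true length was found in 300 and was the only one in 280. The recovery was tested on simulated data: reads of 100% of 13251 rows were returned. No row above 0 was identical between libraries, and chi-square per degree of freedom between pairs was 15.5, 21.1 and 22.7 over 7983 detected genes, so all libraries were kept.

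Pairs of genes were compared within libraries on log2(TPM + 1), where ratios of low genes come out too small, by an exact permutation of the signs of the 3 differences (two-sided), adjusted over 6 pairs. Unique words are 50-base stretches, on either strand, found at no other annotated locus of M21. Named genes are the 10 members, the writer partners and other readers in full, the highest and lowest gene of each other list, rows more than 1.5 times from the longest coding row, and genes whose exons overlap a member. Mettl16, Mat2a and rows within 1.5 times were named after their values were seen. Members and lists were chosen with earlier results of these data known. Alternatives were the highest row, leaving out each library, rescaling, the median over libraries, detection limits of 0.5 TPM and 5 TPM, a smaller pseudocount (0.1) and, added after seeing the data, the row with the longest coding sequence. Python 3.11.15, numpy 2.4.6, pandas 2.3.3 and scipy 1.17.1 were used.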

Additional observations from a re-analysis of the deposited data

How the results depend on the processing

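All 10 genes stayed detected under each alternative run, including limits of 0.5 and 5 TPM. The share of all protein-coding genes at those 2 limits, and after rescaling, was not computed. The counts of the 10 genes there are thus a description only. The 6 pair differences kept their direction in 42 of 42 alternatives, with exact permutation p between 0.25 and 0.5, where the design allows none below 0.25. Only the choice of row could have reversed them. Each direction held in all 3 libraries, and rescaling or a smaller pseudocount cannot change which gene of a pair is higher. The number at 10 TPM or more rose from 3 to 7 on the highest rows and to 10 after rescaling to nuclear protein-coding genes, which raises all genes. The median level of 3.16 became 3.83 on the highest rows, 3.29 on the rows with the longest coding sequence, 5.28 after rescaling and 3.01 with a pseudocount of 0.1, while the median of all protein-coding genes became 2.13, 1.96, 3.86 and 1.56. Over detected genes alone the median was 3.19 on the longest rows, 3.43 on the highest rows and 3.20 on the rows with the longest coding sequence. Of 70 single levels under alternatives, 52 moved by less than 1 SD, and rescaling moved every level by more. On the highest rows Mettl3, Mettl14, Wtap, Ythdf2 and Fto moved by more than 1 SD. On the rows with the longest coding sequence Mettl14, Wtap and Fto did. The largest shift from row choice was that of Fto, to 31.6 TPM on the highest row. With 3 libraries, leaving 1 out or taking the median cannot move a mean by a full SD, so those alternatives do not measure stability. No paired analysis was possible because there is only 1 group. Depth did not limit detection, but reads of the longest Mettl14 row could not be recovered.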

Other observations

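The sequence GGACT, a common form of the methylation consensus, was counted on the transcript strand of the longest coding rows (M21 sequences). All 10 genes hold it, as do 90.1% of the longest coding rows of all protein-coding genes and 96.5% of those within the members' range of lengths. The density differed widely: Mettl3, Wtap and Alkbh5 held 1.98, 1.88 and 1.75 copies per kb, while Ythdf3, Ythdf1 and Ythdc2 held 0.196, 0.314 and 0.416, against a median of 1.05 over all such rows. The median of the 10 genes was 0.653 copies per kb. In Alkbh5, 8 of 10 copies lie after the coding sequence, and in Wtap-204 6 of 6, all in the intron-derived end. In Mettl3, 3 of 4 lie within the coding sequence. These counts describe letters only, and methylation was not measured here.

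RefSeq promoter sequences (GRCm38.p6, 250 bases before to 50 after a start) were matched for 7 of the 10 genes. CG dinucleotides, which read the same on both strands, were counted at the richest start of each gene. Their median was 32, against 19 over 13913 protein-coding genes, 98.3% of which held at least 1. That background also holds genes below 1 TPM, whereas all 10 members were detected. The median over detected genes alone was not computed. Wtap held 48 and Ythdf1 37, while Mettl3 held 17 and Alkbh5 18, so the members differed among themselves. The value of Wtap is the richest of 3 starts, while the other matched members have 1 start each. Mettl14, Ythdf3 and Ythdc2 were not matched.

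Row choice also moved other genes of the pathway. The highest row exceeded the longest coding row 3.96 times for Mettl16, 3.55 times for Zcchc4 and 2.93 times for Rbm15b.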
